A study of Rattus norvegicus with 6 samples.

Results

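Proteins bound for secretion or for the membranes of the secretory pathway must first enter the endoplasmic reticulum, and the genes described here encode the machinery that brings them in. Of 38 genes listed for this machinery, 37 had a probe set annotated to their symbol alone, among 14217 genes with such a probe set in the series, and the probe set standing for each gene was chosen by its mean log2 signal over all 6 arrays, the highest being taken without regard to group. The genes fall into the signal recognition particle (SRP) and its receptor, the Sec61 channel with the proteins around it, the signal peptidase, the GET pathway and the ER membrane protein complex (EMC). Srp54 had no probe set under that symbol alone and is represented by Srp54a, of which RefSeq lists the name as a synonym.

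As background, SRP binds the signal peptide of a nascent chain as it leaves the ribosome and docks on the SRP receptor at the membrane, where the chain is passed to the Sec61 channel. The translocon-associated protein (TRAP) complex and TRAM assist at the channel, and the signal peptidase removes the signal peptide on the lumenal side. Tail-anchored proteins instead use the GET pathway, and the EMC inserts membrane proteins of several kinds. Somatolactotrophs, which secrete prolactin and growth hormone, send a large part of their protein output through this route.

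The cells were GH4C1, a rat somatolactotroph line derived from a pituitary tumour. The R271W group was 3 cultures given a lentiviral vector in which the PGK promoter drives POU1F1(R271W), named in the series title as a dominant negative mutant of the pituitary transcription factor POU1F1, followed by an internal ribosome entry site and EGFP. The control group was 3 cultures given a vector with EGFP alone under the same promoter. All cultures were exposed to the virus for 16 h at a multiplicity of infection of 5 with 2 µg/ml polybrene and then grown for 4 days, and cells with their own POU1F1 made up both groups. The share of cells transduced is not given in the sources used here, and in such bulk RNA fewer cells of a type and less RNA per cell cannot be told apart. Each RNA went onto its own Affymetrix rat array. The labels call the replicates biological but do not say whether they were transduced separately, so the p-values measure the spread between these 6 arrays.

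The deposited values are MAS5 signals, a linear intensity per probe set. Because probe sets bind with different efficiency, changes were read between groups of arrays. Across probe sets, signals served for the filter, for choosing a probe set, for calling probe sets bright or dim, and for rough sums of markers. Median signals over all probe sets were 25.5 to 27.0 on R271W arrays and 22.4 to 23.0 on control arrays. The mean log2 signal of the hybridisation spikes differed by 0.23 (R271W minus control) and the beta-actin 3' to 5' ratio was 1.96 ± 0.099 on R271W arrays and 1.82 ± 0.0076 on control arrays (SD, n = 3 each). Neither of these checks overlapped between groups (exact permutation p = 0.1, two-sided, the smallest that 3 against 3 arrays allow), whereas the poly-A spikes, the other beta-actin ratio and both GAPDH ratios overlapped. Their part in the results below was not tested. Somatolactotroph markers were bright: Prl had a signal of 3175 ± 171 in R271W cells and 4332 ± 188 in control cells, Gh1 6338 ± 867 in R271W cells and 6443 ± 348 in control cells, and Pou1f1 1836 ± 86.2 in R271W cells and 2301 ± 90.1 in control cells (SD, n = 3 each). Prl and Pou1f1 were lower in R271W cells without overlap (limma adjusted p = 0.00048 and 0.00486), whereas Gh1 overlapped (0.853). Chgb and Scg2, for granins of secretory granules, were bright too: Chgb was higher, with 3815 ± 94.0 in R271W cells and 2779 ± 145 in control cells (n = 3 each, limma adjusted p = 0.000337, no overlap), and Scg2 overlapped, with 4913 ± 113 in R271W cells and 4877 ± 739 in control cells (n = 3 each). Whether the Pou1f1 probe set also reads the transduced transcript is not known here. Of 17 markers of other pituitary, stromal, immune and endothelial cells, 16 had a probe set, 4 passed the filter on dim signals and none was at 0. Their summed signal was 1316 to 1386 on R271W arrays and 2788 to 3029.5 on control arrays, almost all of it Dcn, the proteoglycan decorin (1205 ± 37.1 in R271W cells and 2770.1 ± 90.4 in control cells, n = 3 each). Without Dcn the sums were 142 to 152 on R271W arrays and 114 to 176 on control arrays, and the defining stromal genes Col1a1, Col1a2 and Lum were all below the filter. The part of Dcn-expressing cells in the results was not tested.

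Across the machinery, most transcripts of the route from the SRP receptor through Sec61 and TRAP to the signal peptidase were lower in R271W cells. Those of the GET pathway did not pass the test, and most of the SRP particle and the EMC did not pass either. Of the 36 genes that could be tested, 18 fell, 0 rose and 18 did not pass (limma on log2 signal, Benjamini-Hochberg adjusted p under 0.05 over 18625 probe sets). Over all 10143 genes tested, 8.98% fell and 9.87% rose. At an unadjusted p under 0.05 in limma, 21 of the 36 were lower and 0 were higher. The share of all genes at that looser threshold was not counted, so the shares above do not apply to it. The median log2 change (R271W minus control) was -0.24 over the 36 genes, against 0.06 over all genes tested. These genes are bright, and bright genes fell more often: among all genes with a mean signal of at least 200 over the 6 arrays, 19.7% fell and the median log2 change was -0.04, whereas 18 of the 32 machinery genes above that signal fell, with a median of -0.24. The number called depended on the variance model, since 6 of the 36 fell when limma was fitted without its intensity trend, a setting in which 285 genes fell over all genes, against 911. Direction over all genes depended on array scaling: 1001 rose and 911 fell as deposited, whereas 441 rose and 2071 fell after centring each array on its median, which moves every log2 change by -0.20.

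The falls were moderate in size, between 14.1% and 43.6% of the control mean. In 22 of the 36 genes the highest R271W array was below the lowest control, a pattern that 16.6% of all tested genes showed, and this held for all 18 genes that fell. The share of bright genes with that pattern was not counted. For the 18 genes, arrays lying apart is not evidence separate from the test itself. The adjusted p nearest to the threshold was 0.0465 among genes that fell (Sec11a) and 0.0649 among those that did not pass (Srp72). Tram2, a paralogue of Tram1, was too dim to be tested, with signals of 31.7, 12.7 and 2.86 in R271W cells, against 6.16, 13.6 and 3.36 in control cells.

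**Figure D1:**
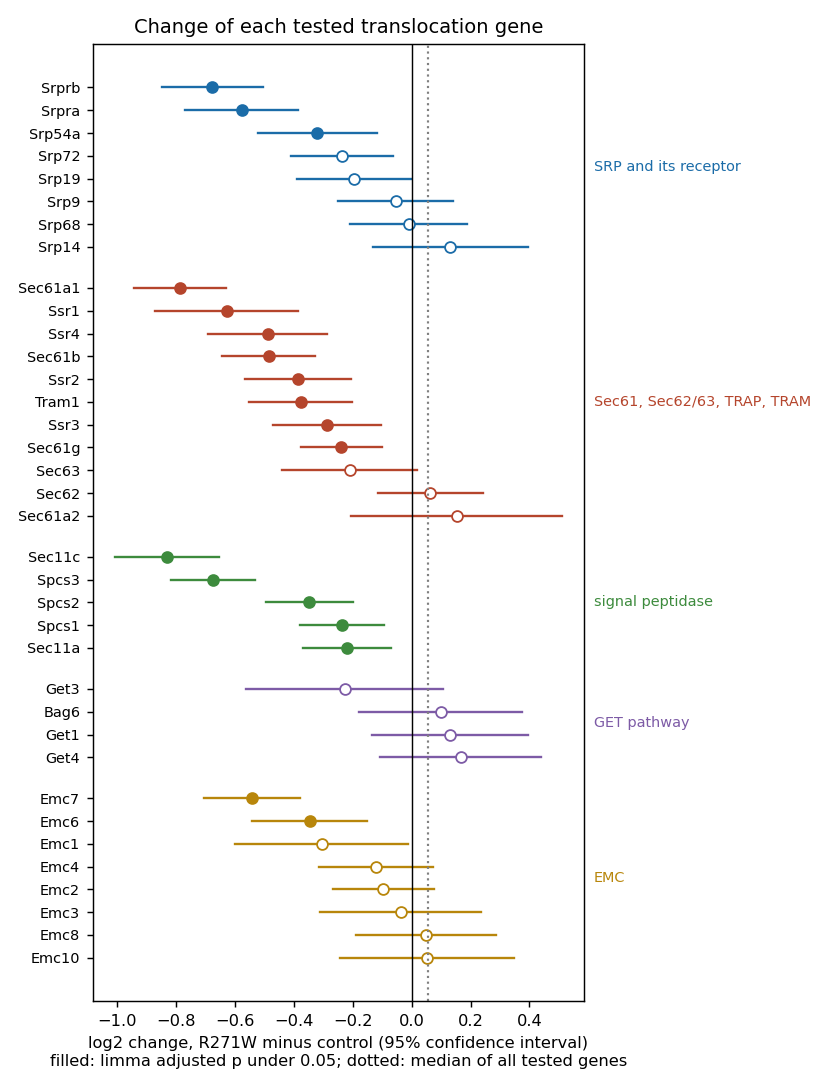
Log2 change (R271W minus control, x axis) of each of the 36 tested genes, by group, with 95% confidence intervals from limma. Filled points passed an adjusted p of 0.05, and the dotted line marks the median of all tested genes; the 18 filled points all lie left of 0, and none of them is in the GET pathway.

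The deviations from the control mean, averaged over the genes of each group, were lowest for the signal peptidase, next for the Sec61 group and highest for the GET pathway on every R271W array. The 5 signal peptidase genes averaged -0.45, -0.48 and -0.45 (log2) on the R271W arrays, against -0.00, 0.01 and -0.01 on the control arrays. The 11 genes at the Sec61 channel averaged -0.33, -0.35 and -0.32 on R271W arrays, against -0.03, 0.05 and -0.02 on control arrays. The 8 SRP and receptor genes averaged -0.22, -0.28 and -0.23 on R271W arrays, against 0.04, -0.08 and 0.03 on control arrays. In these groups no R271W array reached the range of the controls. The 8 EMC genes averaged -0.24, -0.16 and -0.11 on R271W arrays, against -0.02, -0.01 and 0.03 on control arrays, so they too lay apart but closer to the controls. The 4 GET genes averaged 0.07, -0.03 and 0.09 on R271W arrays, against 0.10, -0.03 and -0.07 on control arrays, and the groups overlapped.

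**Figure D2:**
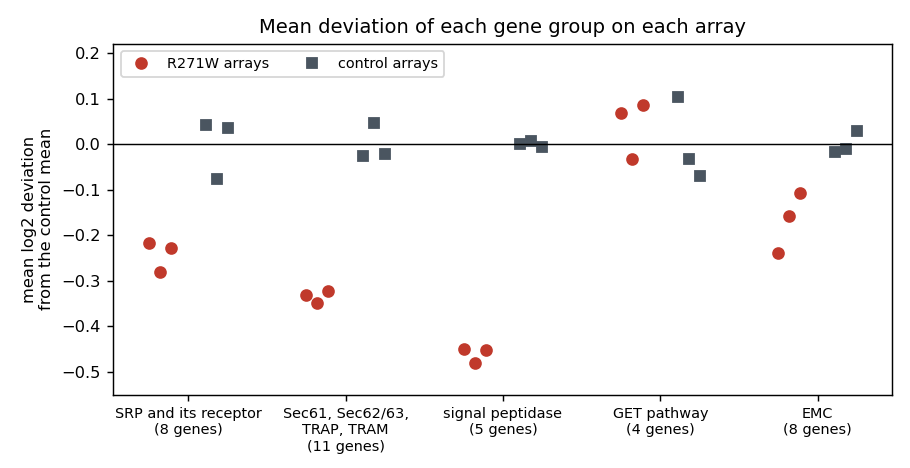
Mean log2 deviation from the control mean (y axis) of the genes of each group on each of the 6 arrays, R271W arrays as circles to the left and control arrays as squares to the right. R271W arrays lie below all control arrays in every group except the GET pathway, where they overlap.

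The signal peptidase was the one group in which each tested gene fell, 5 of 5, with a median log2 change of -0.35. Of all tested genes 8.98% fell, and of those with a mean signal of at least 200, which all 5 had, 19.7% fell. When limma was fitted without its intensity trend, 2 of the 5 fell. The enzyme has a catalytic subunit, made in alternative forms by the paralogues Sec11a and Sec11c, and the accessory subunits Spcs1, Spcs2 and Spcs3. Upstream sequences of the accessory subunits, which fell together, are shown here from RefSeq (GRCr8), the 250 bases before the annotated start of each gene, 5′ to 3′ along the gene's own strand. Capitals mark any of the motifs searched for, as described with the promoters further on.
Spcs3, chr16:44038171-44038420, plus strand: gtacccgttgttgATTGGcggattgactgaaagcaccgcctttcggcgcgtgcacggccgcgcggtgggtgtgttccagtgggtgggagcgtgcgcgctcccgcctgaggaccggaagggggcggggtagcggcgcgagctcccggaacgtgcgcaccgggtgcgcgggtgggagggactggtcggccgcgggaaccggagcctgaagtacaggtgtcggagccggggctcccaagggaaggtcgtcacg
Spcs2, chr1:163595270-163595519, minus strand: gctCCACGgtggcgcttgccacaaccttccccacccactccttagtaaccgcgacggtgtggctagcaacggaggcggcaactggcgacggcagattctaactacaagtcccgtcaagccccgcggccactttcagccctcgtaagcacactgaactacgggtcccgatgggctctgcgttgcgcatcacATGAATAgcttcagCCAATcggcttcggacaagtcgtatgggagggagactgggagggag
Spcs1, chr16:6198222-6198471, minus strand: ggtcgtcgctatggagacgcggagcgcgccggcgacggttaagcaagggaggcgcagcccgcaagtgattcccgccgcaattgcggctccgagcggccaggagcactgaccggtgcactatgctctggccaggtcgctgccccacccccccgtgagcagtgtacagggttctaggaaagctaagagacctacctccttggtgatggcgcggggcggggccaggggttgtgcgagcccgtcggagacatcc
The Spcs3 stretch holds CCAAT on the opposite strand, read here as ATTGG. Spcs2 holds CCACG, the POU-type core ATGNATA and CCAAT on its own strand, and Spcs1 holds none of the motifs.

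Sec11c had signals of 575, 548 and 491 in R271W cells, against 956, 923 and 986 in control cells. All R271W arrays lay far below all controls. Its means were 538 ± 43.0 in R271W cells and 955 ± 31.4 in control cells (SD, n = 3 each), a log2 change of -0.83 (95% confidence interval -1.01 to -0.65, limma adjusted p = 2.48e-05), the furthest fall among the 36 genes. Spcs3, an accessory subunit needed for activity, had 1721, 1666 and 1697 in R271W cells, against 2714, 2854 and 2548 in control cells. The R271W arrays were close together and all below the controls, with a log2 change of -0.67 (limma adjusted p = 2.48e-05). Spcs2 had 1077, 1173 and 1178 in R271W cells, against 1469.6, 1444 and 1443 in control cells, a log2 change of -0.35 (limma adjusted p = 0.00392), again without overlap.

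Spcs1, a small membrane subunit, had 2886, 2731 and 3101 in R271W cells, against 3465, 3457 and 3333 in control cells, a log2 change of -0.24 (limma adjusted p = 0.0271). The other catalytic subunit gene, Sec11a, had 1198, 1128 and 1197 in R271W cells, against 1321, 1360.2 and 1419 in control cells, a log2 change of -0.22 (limma adjusted p = 0.0465). In both genes the groups did not overlap, but the gap was narrow. The calls of these 2 genes depended on single arrays: the adjusted p of Spcs1 was 0.0974 without control replicate 1, 0.0975 without control replicate 2, 0.0619 without control replicate 3, 0.0684 without R271W replicate 1 and 0.0965 without R271W replicate 2, and that of Sec11a was 0.0769, 0.118, 0.165, 0.0713 and 0.142 without the same arrays, so that 3 of 5 genes fell in each of those fits. Under quantile normalization the adjusted p of Sec11a was 0.365.

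The catalytic paralogues differed in size of change. The log2 ratio of Sec11c to Sec11a, centred on the control mean, was -0.54, -0.52 and -0.77 on the R271W arrays, against 0.05, -0.04 and -0.01 on the control arrays, with a mean of -0.61 ± 0.14 in R271W cells (SD, n = 3). The groups did not overlap (exact permutation p = 0.1, two-sided, the smallest possible), so Sec11c was lower relative to Sec11a on every R271W array.

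At the Sec61 channel, 8 of the 11 tested genes fell and 0 rose, with a median log2 change of -0.38. Of all tested genes 8.98% fell and 9.87% rose. Among those with a mean signal of at least 200, which 9 of the 11 had, 19.7% fell. When limma was fitted without its intensity trend, 1 of the 11 fell, Sec61a1 (adjusted p = 0.0237). The channel itself is made of an alpha, a beta and a gamma subunit. Sec61a1, which encodes the pore-forming alpha subunit, had signals of 1072, 1018 and 1085 in R271W cells, against 1711, 1964 and 1807 in control cells. Every R271W array was well below every control. The means were 1058 ± 36.0 in R271W cells and 1828 ± 127 in control cells (SD, n = 3 each), a log2 change of -0.79 (95% confidence interval -0.94 to -0.63, limma adjusted p = 1.49e-05). A second probe set of Sec61a1 gave the same log2 change, -0.79 (limma adjusted p = 9.92e-05), with means of 367 ± 37.0 in R271W cells and 633 ± 29.2 in control cells (n = 3 each). Averaging all its probe sets, of which the remaining one was near-dark, gave a log2 change of -0.42 that did not pass (limma adjusted p = 0.161).

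Sec61b, the beta subunit, had 1084, 1173 and 1258 in R271W cells, against 1650.0, 1655 and 1608 in control cells, a log2 change of -0.49 (limma adjusted p = 0.000563). Sec61g, the gamma subunit, had 2613, 2659 and 2755 in R271W cells, against 3313, 3035 and 3128 in control cells, a log2 change of -0.24 (limma adjusted p = 0.021). Neither gene overlapped between groups. The call of Sec61g was lost without either control replicate 1 or 3 (adjusted p = 0.107 and 0.0636), without either R271W replicate 1 or 2 (0.0661 and 0.0531), and under quantile normalization (0.0779).

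The second alpha subunit gene did not follow the first. Sec61a2 had 161, 146 and 102 in R271W cells, against 114, 124 and 123 in control cells, with overlapping groups and a log2 change of 0.15 (95% confidence interval -0.21 to 0.51, limma adjusted p = 0.594). The log2 ratio of Sec61a1 to Sec61a2, centred on the control mean, was -1.18, -1.12 and -0.51 on the R271W arrays, against -0.02, 0.06 and -0.04 on the control arrays, with a mean of -0.94 ± 0.37 in R271W cells (SD, n = 3). The ratio was lower on all R271W arrays (exact permutation p = 0.1, two-sided, the smallest possible), and R271W replicate 3 was nearest to the controls.

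**Figure D3:**
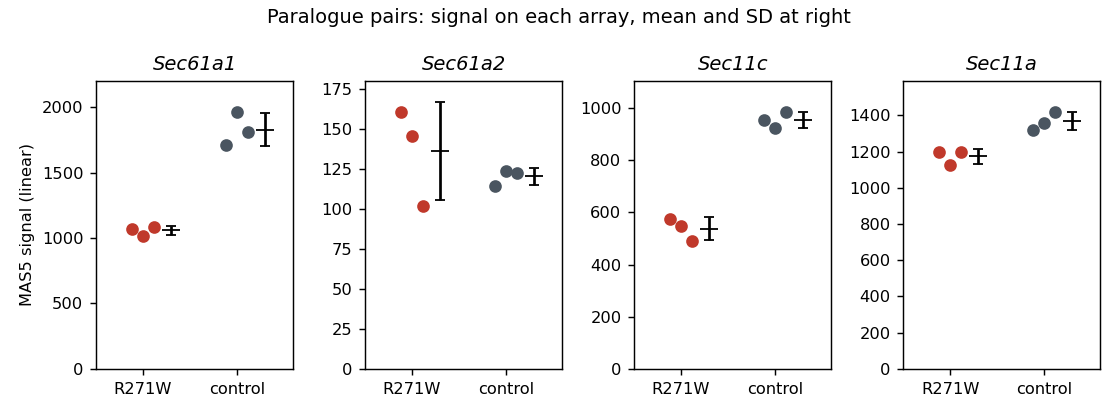
MAS5 signal (linear, y axis from 0) of the paralogues Sec61a1 and Sec61a2 and of Sec11c and Sec11a on each of the 3 R271W and 3 control arrays, with mean and SD beside the points. Sec61a1, Sec11c and Sec11a lie lower on all R271W arrays, whereas the Sec61a2 points overlap; heights are not comparable between panels.

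The TRAP complex, which binds the channel and helps weakly gated signal peptides through, has its subunits encoded by Ssr1 to Ssr4, and all 4 fell. Without the intensity trend all 4 calls were lost (limma adjusted p = 0.0813 for Ssr1, 0.111 for Ssr2, 0.233 for Ssr3 and 0.097 for Ssr4). Ssr1 had signals of 729.6, 880.4 and 968 in R271W cells, against 1335, 1507 and 1139 in control cells, a log2 change of -0.63 (limma adjusted p = 0.002). Ssr4 had 1682, 1923 and 2285 in R271W cells, against 2837, 2638 and 2733 in control cells, a log2 change of -0.49 (limma adjusted p = 0.00304). Both sets of R271W arrays were spread, with replicate 1 lowest, and still lay below all controls. Ssr2 had 947, 987 and 1127 in R271W cells, against 1403, 1364 and 1231 in control cells, a log2 change of -0.39 (limma adjusted p = 0.00657). Ssr3 had 3891, 3209 and 3706 in R271W cells, against 4144, 4887 and 4142 in control cells, a log2 change of -0.29 (limma adjusted p = 0.0353). The Ssr3 groups were close, and its call was lost when any control array was left out (adjusted p = 0.0542, 0.168 and 0.0536 without control replicate 1, 2 and 3) or R271W replicate 2 was (0.132). The other Ssr3 probe sets had log2 changes of -0.19 and -0.14 that did not pass (adjusted p = 0.114 and 0.568), nor did the average (-0.21, adjusted p = 0.124), whereas a further Ssr1 probe set fell, with -0.80 (adjusted p = 8.12e-05).

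TRAM, encoded by Tram1, contacts nascent chains beside the channel. Tram1 had signals of 1695, 1519 and 1403 in R271W cells, against 1852, 2028 and 2103 in control cells, a log2 change of -0.38 (limma adjusted p = 0.0065) without overlap. Its dimmer probe set differed, with a log2 change of 0.02 (adjusted p = 0.918), and averaging both gave -0.18, which did not pass (adjusted p = 0.21). Sec62 and Sec63 encode membrane proteins that serve post-translational import and the recruitment of BiP, and neither passed on its brightest probe set. Sec62 had 1228, 1138 and 1106 in R271W cells, against 988, 1161 and 1179 in control cells, a log2 change of 0.06 (limma adjusted p = 0.666). Sec63 had 193, 182 and 173 in R271W cells, against 212, 208 and 214 in control cells, a log2 change of -0.21 (limma adjusted p = 0.208). The Sec62 arrays overlapped and the Sec63 arrays did not. Among their dimmer probe sets, one of Sec62 rose (log2 change 0.27, adjusted p = 0.0397) and one of Sec63 fell (-0.77, adjusted p = 0.0372).

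In targeting, both genes of the SRP receptor fell, against 1 of 6 genes for proteins of the particle. The share that fell was 8.98% of all tested genes and 19.7% of those with a mean signal of at least 200. Srprb, the membrane-anchored beta subunit of the receptor, had signals of 544, 597 and 599.6 in R271W cells, against 982, 889.9 and 910.1 in control cells, a log2 change of -0.68 (limma adjusted p = 9.2e-05). Srpra, the alpha subunit that meets the particle, had 498, 432 and 414 in R271W cells, against 647, 672 and 679 in control cells, a log2 change of -0.58 (limma adjusted p = 0.000654). In both genes all R271W arrays lay well below the controls. With its 3 probe sets averaged, Srprb had a log2 change of -0.18 that did not pass (limma adjusted p = 0.605). The averaged deviation of the receptor genes was -0.59, -0.63 and -0.66 (log2) on R271W arrays, against 0.02, -0.02 and 0.00 on control arrays, and that of the particle genes was -0.09, -0.16 and -0.09 on R271W arrays, against 0.05, -0.09 and 0.05 on control arrays. Particle values overlapped between the groups and receptor values did not; the difference between receptor and particle was not tested.

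Srp54a, for the subunit that binds signal peptides, was the particle gene that fell. It had signals of 266, 242 and 258 in R271W cells, against 325, 319.5 and 311 in control cells, a log2 change of -0.32 (limma adjusted p = 0.0333). The arrays lay apart, but a dimmer probe set had a log2 change of 0.01 (adjusted p = 0.981), and over all its probe sets the mean log2 change was 0.06 (adjusted p = 0.88). Its call was also lost when any control array was left out (adjusted p = 0.0993, 0.0935 and 0.073 without control replicate 1, 2 and 3) and without R271W replicate 2 (0.117) or 3 (0.0512). Srp72, of the large SRP68/72 heterodimer, had 432, 437 and 445 in R271W cells, against 494, 519 and 536 in control cells, a log2 change of -0.24 that did not pass (limma adjusted p = 0.0649), although its arrays did not overlap and a dimmer probe set fell (-0.41, adjusted p = 0.0165). The other particle genes had log2 changes of -0.19 (Srp19, adjusted p = 0.169), -0.05 (Srp9, 0.745), -0.01 (Srp68, 0.956) and 0.13 (Srp14, 0.523), and none passed.

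In the EMC, 2 of 8 genes fell, and the median log2 change was -0.11. For comparison, 8.98% of all tested genes fell, and 19.7% of those with a mean signal of at least 200, which 7 of the 8 had. Whether the EMC differed from those shares was not tested. Emc7, a subunit with a lumenal domain, had signals of 797, 905 and 885 in R271W cells, against 1293, 1203 and 1262 in control cells, a log2 change of -0.54 (limma adjusted p = 0.000339). Emc6, a small transmembrane subunit, had 439.9, 483 and 536 in R271W cells, against 587, 619.7 and 643 in control cells, a log2 change of -0.35 (limma adjusted p = 0.0188). Neither gene overlapped, with a wider gap for Emc7. The call of Emc6 was lost without either control replicate 2 or 3 (adjusted p = 0.0609 and 0.0786) and without either R271W replicate 1 or 2 (0.0716 and 0.056), which left 1 EMC gene. The other 6, which include the large lumenal subunit Emc1 and the cytosolic subunits Emc2 and Emc8, had log2 changes between -0.30 (Emc1, adjusted p = 0.154) and 0.05 (Emc10, adjusted p = 0.846). Emc1 was the only one of those 6 whose arrays lay apart, with 111, 119.5 and 120.1 in R271W cells, against 147, 126 and 161 in control cells.

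In the GET pathway 0 of 4 genes passed in either direction in limma, also at an unadjusted p under 0.05, and the median log2 change was 0.11. Over all tested genes 8.98% fell and 9.87% rose at the adjusted threshold, and 19.7% of those with a mean signal of at least 200 fell. At such shares a count of 0 among 4 genes does not set the pathway apart. Get3, the ATPase that carries tail-anchored proteins, had the smallest p of the 4. Its signals were 176, 203 and 245 in R271W cells, against 305, 204 and 226 in control cells, a log2 change of -0.23 (95% confidence interval -0.56 to 0.11, limma adjusted p = 0.364). The groups overlapped. Get4 and Bag6, which act in handing the clients over, had log2 changes of 0.17 and 0.10, and Get1, part of the membrane receptor, 0.13 (adjusted p = 0.421, 0.665 and 0.536). The intervals of Get4 and Get1 reached down to -0.11 and -0.14. A dimmer Get1 probe set had a log2 change of -0.35 (adjusted p = 0.0639). Whether the GET pathway differed from the other groups was not tested.

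Of the 37 genes, 14 had more than 1 probe set, and 21 of their 22 further probe sets were tested. Of those 21, 5 fell, 1 rose and 13 had the same sign as the brighter probe set of the gene, against 7.22% of all tested probe sets that fell. The 5 belonged to Sec61a1, Ssr1, Srprb, Srp72 and Sec63. The Srprb probe set that fell had a log2 change of -0.53 (adjusted p = 0.00227), and a dim one 0.67 (adjusted p = 0.534). Further probe sets whose sign differed read 0.50 for Srp54a (adjusted p = 0.693), 0.56 for Emc1 (0.6), -0.09 for Bag6 (0.824) and -0.04 for Get4 (0.857), all of them with overlapping arrays. Opposite signs were seen among the probe sets of Srprb, Tram1, Srp54a, Emc1, Bag6, Get1 and Get4.

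**Figure D4:**
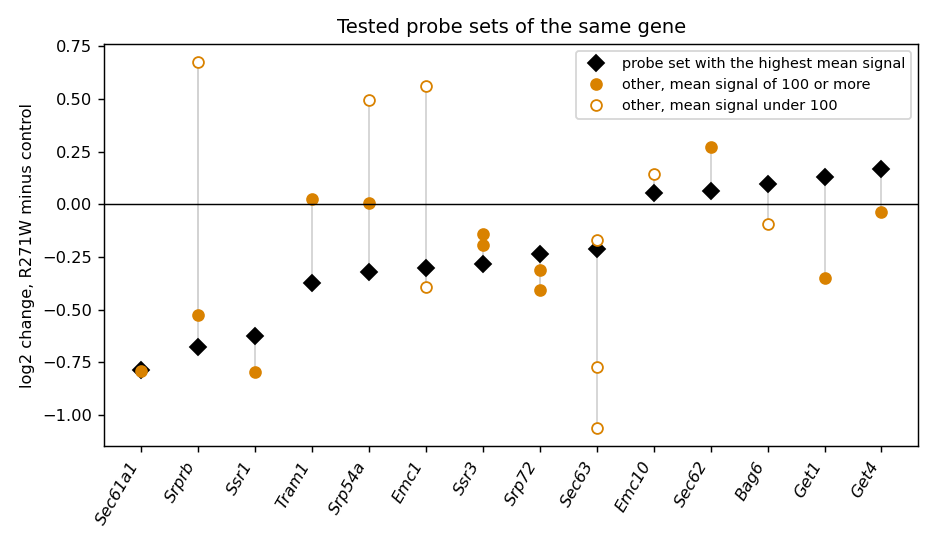
Log2 change (R271W minus control, y axis) of all tested probe sets of the 14 genes with more than 1, with the brightest as a diamond, others at a mean signal of at least 100 as filled circles and dimmer ones as open circles. Sec61a1 and Ssr1 have close values, whereas the probe sets of Srp54a, Tram1 and Get1 lie on both sides of 0.

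Genes that work beside the translocon were read from the same fit. Of 38 such genes, 37 were tested, and 19 fell and 2 rose, with a median log2 change of -0.37. Of the 2 that rose, Emc9 passed the filter through its R271W arrays, as described below. Over all tested genes 8.98% fell, and 19.7% of those with a mean signal of at least 200, which 30 of the 37 had. Without the intensity trend 10 of the 37 fell. The oligosaccharyltransferase, which adds N-glycans to entering chains, had 8 of 12 genes lower and 1 higher. Among its falls were Ddost, with a log2 change of -0.89, Magt1 with -0.79, Krtcap2 with -0.76 and Ostc with -0.54. Ddost had signals of 763, 809 and 900.1 in R271W cells, against 1484, 1626 and 1469 in control cells, with no overlap. Tusc3, an alternative to Magt1 in the complex, rose (log2 change 0.24, limma adjusted p = 0.0396), with 926, 998 and 901 in R271W cells, against 780.4, 783 and 819.6 in control cells. That call was lost without control replicate 1, 2 or 3 (adjusted p = 0.117, 0.12 and 0.0729) and without R271W replicate 1 or 2 (0.068 and 0.146), and under median centring the log2 change was 0.05. Stt3b, for a catalytic subunit, did not pass (log2 change -0.18, adjusted p = 0.237), whereas its dimmer probe set fell (-0.38, adjusted p = 0.0222).

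In the lumenal Hsp70 cycle, which pulls chains in and folds them, 4 of 7 genes fell. Of all tested genes 8.98% fell, and 19.7% of those with a mean signal of at least 200, which 5 of the 7 had. Dnajb11 had a log2 change of -0.70, Hyou1 -0.76, Dnajc1 -0.46 and Hspa5, which encodes BiP, -0.28 (limma adjusted p = 0.0201). Without the intensity trend the calls of Hyou1, Dnajc1 and Hspa5 were lost (limma adjusted p = 0.0822, 0.0539 and 0.19). With averaged probe sets the calls of Hyou1 (log2 change -0.50, adjusted p = 0.0829) and Dnajc1 (0.25, adjusted p = 0.696) were lost. The second probe set of Hyou1 had a log2 change of -0.23 and another of Dnajc1 -0.15, and neither passed (adjusted p = 0.576 and 0.792). The remaining Dnajc1 probe set, which enters its average, was too dim to be tested. It had signals of 16.5, 17.8 and 3.38 in R271W cells, against 7.14, 0.834 and 9.75 in control cells. Hspa5 had signals of 3251, 3592 and 3657 in R271W cells, against 4564, 4231 and 3924 in control cells, without overlap. Its call was lost without either control replicate 1 or 2 (adjusted p = 0.109 and 0.0661) and without R271W replicate 1 (0.0835). The multipass translocon, a set of proteins that joins Sec61 for membrane proteins with many segments, also had 4 of 7 genes lower, with log2 changes of -0.78 for Tmem147, -0.53 for Rab5if, -0.49 for Ccdc47 and -0.38 for Nomo1. All 7 of these genes had a mean signal of at least 200. Without the intensity trend the calls of Rab5if and Nomo1 were lost (limma adjusted p = 0.0516 and 0.0755).

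Lrrc59, a ribosome-binding membrane protein, was 1 of 3 such genes that fell (log2 change -0.73), where 8.98% of all tested genes fell. Rrbp1, another of the 3, did not pass on its chosen probe set (log2 change -0.43, limma adjusted p = 0.0517), but its other probe set fell, with 101.4 ± 2.17 in R271W cells and 199 ± 1.94 in control cells (n = 3 each, log2 change -0.97). Hm13, which encodes signal peptide peptidase, fell by 0.66 on the log2 scale, a call lost with averaged probe sets (-0.51, adjusted p = 0.0728), where its dim probe sets, at -0.47 and -0.40, did not pass. The cytosolic chaperone gene Ubl4a was the one of 3 further GET genes that passed (log2 change -0.42, limma adjusted p = 0.0459), with 228, 233 and 327 in R271W cells, against 352, 359.9 and 325 in control cells. Its groups overlapped, and the call was lost without control replicate 1, 2 or 3 (adjusted p = 0.118, 0.129 and 0.0734) and without R271W replicate 1 or 2 (0.155 and 0.161). Its other probe set had a log2 change of -0.04 (adjusted p = 0.885). Of the EMC genes outside the 37, Mmgt1 did not pass and Emc9 was the other of the 2 genes called higher. Emc9 had dim signals of 45, 35.3 and 37.1 in R271W cells, against 10.6, 7.9 and 13.5 in control cells. Its control mean of 10.7 lay below the filter's signal of 11.2, so it passed the filter through the R271W arrays, and no fold is given. Neither Naca nor Tmem208, of cytosolic chain handling and targeting, passed in limma, also without adjustment.

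**Figure D5:**
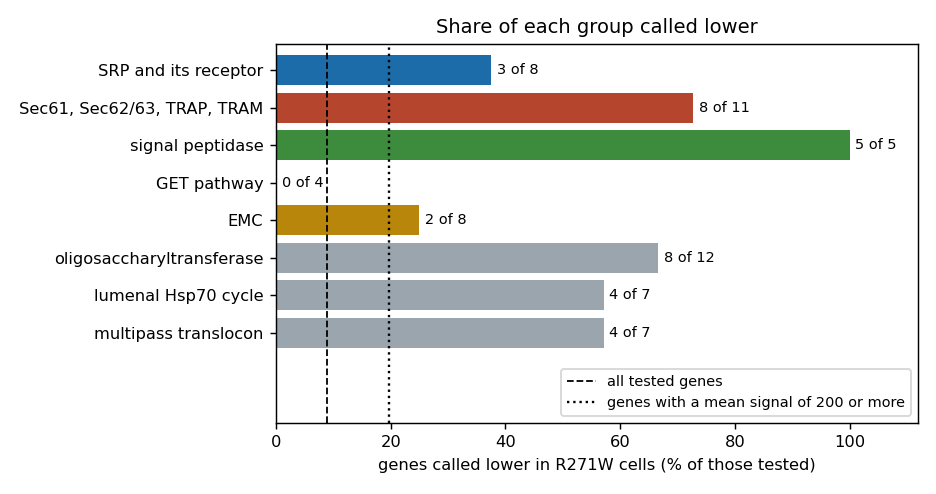
Share of tested genes that fell in R271W cells (x axis, %) in each group of the machinery and in the 3 largest groups beside the translocon, with the counts at the bars. The dashed line marks the 8.98% of all tested genes and the dotted line the 19.7% of genes with a mean signal of at least 200; the signal peptidase is at 5 of 5 and the GET pathway at 0 of 4.

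Promoters were read as 300-base windows, 250 bases before to 50 after each start, for 32 of the 37 genes (33 windows), from RefSeq with GRCr8. Emc2, Emc7, Sec61a1, Sec61a2 and Tram1 were not matched. All motifs were searched on both strands, and a match is a description of letters. The endoplasmic reticulum stress response element, searched as CCAAT followed after 9 bases by CCACG, was in 0 of 33 windows and in 0.0657% of the 33469 windows of all genes. CCACG alone was in 15 windows (45.5%, against 31.6% of all), which overlaps the element's second block, and it was in 5 of 15 windows of genes that fell and in 10 of 18 others. CCAAT was in 8 windows (24.2%, against 37.5%), 5 of 15 of genes that fell and 3 of 18 others. The XBP1-type element TGACGTGG was in 1 window (3.03%, against 0.595%), that of Srp19, the cAMP response element TGACGTCA in 2 (6.06%, against 1.83%), those of Emc3 and Emc10, and the POU-type core ATGNATA in 3 (9.09%, against 9.88%), those of Emc4, Spcs2 and Srprb. The windows were richer in G and C than those of all genes, with a median of 61.7% against 51.7%, and held a median of 23 CpG dinucleotides against 7.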

How the data were processed

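The deposited intensity values are MAS5 signals made by the authors, per the submitters' processing notes; their MAS5 version is not given in the sources used here. That the arrays share 1 trimmed mean was inferred from the values. The number of arrays, 3 per group, limits the precision.

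Symbols came from the platform table, updated by Entrez ID through RefSeq (GRCr8): of 31042 non-control probe sets, 20826 had 1 symbol, 436 several, and 9780 were not listed. Log2 signals were fitted with limma 3.58.1 in R 4.3.3 (intensity trend, group as the term, two-sided) over 18625 probe sets whose mean lay at or above the 40th percentile (signal 11.2), with Benjamini-Hochberg adjustment. The test was tried on simulated data.

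The genes, lists and tests were chosen with earlier results of these data known. Values by array are given for each gene that fell, for the smallest p of a group with none, and for paralogues, and up to 4 genes with the smallest p are named per further list; further probe sets of the machinery genes are given where sign or call differed. Alternatives were 3 array scalings, 2 filters, an offset, 2 variance models, array weights, a replicate block, averaged probe sets, a fold of 1.5 and leaving out each array.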

Additional observations from a re-analysis of the deposited data

How the results depend on the processing

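All 18 genes that fell were tried under 18 alternatives, 6 of which left out an array, and 17 stayed below 0 in each; the exception was Srp54a, at 0.061 when probe sets were averaged. Spcs3 and Sec11c also passed under every alternative run, and Srpra and Emc7 under every one except the fold. Without the intensity trend 6 machinery genes fell (SRP and receptor 2, Sec61 group 1, signal peptidase 2, EMC 1) and 10 genes beside the translocon. Over all genes 362 rose and 285 fell in that fit, against 1001 and 911. With a fold of at least 1.5, 5 fell (SRP and receptor 1, Sec61 group 2, signal peptidase 2, EMC 0), and 8 beside the translocon. Median centring moved every log2 change by -0.20 and 75th percentile centring by -0.08; the median change of the machinery became -0.43 and -0.32, 5 SRP and 5 EMC genes fell under median centring, and over all genes 441 rose and 2071 fell. Without a filter, 3 signal peptidase genes fell. Leaving out 1 array gave 12 to 17 machinery genes lower, 3 to 5 for the signal peptidase, 1 to 2 for the EMC, 6 to 8 for the Sec61 group, 2 to 3 for SRP and receptor, a median of -0.27 to -0.21, 17 to 22 lower and 1 to 2 higher beside the translocon. The count of 2 higher there, which includes Emc9, was 1 under both centrings, no filter, the 60th percentile filter, no trend, the block, averaged probe sets and the fold.

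Signs changed for genes that did not pass. Under median centring Srp14 was -0.067, Sec61a2 -0.046, Sec62 -0.135, Get1 -0.069, Get4 -0.032, Bag6 -0.100, Emc8 -0.150 and Emc10 -0.147, and under 75th percentile centring Sec62 was -0.019, Emc8 -0.034 and Emc10 -0.031. Under quantile normalization Srp9 was 0.047 and Srp68 0.068. With array weights Emc3 was 0.010. With averaged probe sets Get1 was -0.112, and Dnajc1, which had passed, 0.252. Leaving out 1 array gave ranges of -0.155 to 0.021 for Srp9, -0.0075 to 0.231 for Srp14, -0.107 to 0.059 for Srp68, -0.018 to 0.110 for Sec62, -0.0020 to 0.232 for Get1, -0.136 to 0.124 for Emc3, -0.041 to 0.137 for Emc8 and -0.116 to 0.197 for Emc10. The cause was not tested.

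Replicate numbers did not pair the arrays: the correlations of same-numbered deviations were -0.00, 0.01 and -0.02. With replicate number as a block, 3 signal peptidase genes fell, and over all probe sets 1336 rose and 1143 fell, against 1596 and 1344. MAS5 signals of dim probe sets limit the values of Tram2, Emc9 and the dim probe sets of Srprb, Srp54a and Emc1.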
